A study of Mus musculus with 18 samples.

Results

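A set of 10 genes of mouse macrophages is described here: the TREM receptor genes Trem1, Trem2 and Trem3, the Fc gamma receptor genes Fcgr1, Fcgr2b, Fcgr3 and Fcgr4, and the genes of their signalling adaptors, Tyrobp (DAP12), Hcst (DAP10) and Fcer1g (the Fc receptor gamma chain). They were chosen by symbol, as the rows of the count table whose Ensembl ID maps to these names, and they are 10 of 50600 gene IDs. All 10 passed the filter on low counts, which left 15663 tested genes in all. The choice rested on a result of these data, the level of Trem2 in IRF5 knockout cells with defactinib against the same cells without it. That contrast is therefore described without a test, as is the interaction of genotype and defactinib.

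RNA was sequenced from bone marrow-derived macrophages (BMDMs) grown with recombinant GM-CSF for 8 days, from wild-type (WT) mice and from mice labelled as IRF5 knockout (IRF5 KO). IRF5 is a transcription factor of inflammatory genes in macrophages, and defactinib is an inhibitor of the kinases FAK and PYK2. There were 6 groups of 3 libraries. The WT unstimulated and IRF5 KO unstimulated groups carry the labels DMSO and 0 h of LPS, while their columns are marked as untreated, so whether they received the vehicle is not settled. The WT LPS DMSO and IRF5 KO LPS DMSO groups had the DMSO vehicle for 1 h and then 100 ng/ml LPS, a bacterial ligand of TLR4, for 2 h. The WT LPS defactinib and IRF5 KO LPS defactinib groups had 3.5 μM defactinib for 1 h and then the same LPS. The labels call the libraries biological replicates and do not say which animals they came from, nor the strain, the age or the knocked-out allele for this experiment. Defactinib was not given without LPS, so its effect at rest was not measured.

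TREM1 and TREM2 are cell surface receptors with no signalling motif of their own. They pair in the membrane with DAP12, whose cytoplasmic tail carries an ITAM, a tyrosine motif that recruits the kinase SYK. TREM1 is known as an amplifier of the response to bacterial products in myeloid cells, and TREM2 as a receptor for lipids and lipoproteins in tissue macrophages and microglia. The activating Fc gamma receptors FcγRI (Fcgr1), FcγRIII (Fcgr3) and FcγRIV (Fcgr4) bind the constant part of IgG and signal through the ITAM of the Fc receptor gamma chain. FcγRIIB (Fcgr2b) binds IgG complexes too, and carries an inhibitory motif in place of an ITAM.

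The genes lie in 4 places of the mm10 genome, with the coordinates of the count table. Trem1 (chr17:48232768-48246924, plus strand), Trem3 (chr17:48247777-48258841, plus strand) and Trem2 (chr17:48346401-48354147, plus strand) form a cluster on chromosome 17, in which 852 bases part Trem1 from Trem3, and 87559 bases with 3 coding genes, B430306N03Rik, Treml2 and Treml4, part Trem3 from Trem2. Tyrobp (chr7:30413760-30417585, plus strand) and Hcst (chr7:30417712-30419854, minus strand) end 126 bases apart on opposite strands of chromosome 7. On chromosome 1, Fcgr2b (chr1:170958617-170976547, minus strand), Fcgr4 (chr1:171018920-171029761, plus strand) and Fcgr3 (chr1:171051174-171064935, minus strand) are direct neighbours, and Fcer1g (chr1:171229572-171234365, minus strand) follows beyond 7 other coding genes. Fcgr1 (chr3:96282909-96293969, minus strand) is alone on chromosome 3. The reads were counted by strand, so Tyrobp and Hcst are told apart. Fcgr2b, Fcgr3 and Fcgr4 are related in sequence and only uniquely mapped pairs were counted, so read pairs that fit more than 1 of them are not in these values.

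The 250 bases before the RefSeq transcription start were found for 8 of the 10 genes in the RefSeq promoter table of GRCm38.p6, all but Trem3 and Tyrobp. They are shown for Trem1, which fell most with defactinib in WT cells, for Trem2, on which the choice rested, for Fcgr1, which fell in IRF5 KO cells with LPS and defactinib, and for Fcgr4, which rose most with LPS in WT cells. Each is written 5′ to 3′ along its gene, and capitals mark the matches to the motifs named after them. The windows are chr17:48232489-48232738 (plus strand) for Trem1, chr17:48346151-48346400 (plus strand) for Trem2, chr3:96293970-96294219 (minus strand) for Fcgr1 and chr1:171018676-171018919 (plus strand) for Fcgr4, where the last 6 bases lie inside the annotated gene and are not printed.
Trem1: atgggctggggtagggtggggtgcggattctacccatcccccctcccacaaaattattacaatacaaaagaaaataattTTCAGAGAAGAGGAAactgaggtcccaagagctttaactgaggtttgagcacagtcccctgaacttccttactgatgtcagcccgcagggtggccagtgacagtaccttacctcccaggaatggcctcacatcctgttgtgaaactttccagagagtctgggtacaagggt
Trem2: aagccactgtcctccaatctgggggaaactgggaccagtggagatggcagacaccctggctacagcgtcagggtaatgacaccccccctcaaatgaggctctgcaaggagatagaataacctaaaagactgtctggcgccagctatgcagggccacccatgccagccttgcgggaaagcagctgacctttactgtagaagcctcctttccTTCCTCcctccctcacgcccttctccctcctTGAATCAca
Fcgr1: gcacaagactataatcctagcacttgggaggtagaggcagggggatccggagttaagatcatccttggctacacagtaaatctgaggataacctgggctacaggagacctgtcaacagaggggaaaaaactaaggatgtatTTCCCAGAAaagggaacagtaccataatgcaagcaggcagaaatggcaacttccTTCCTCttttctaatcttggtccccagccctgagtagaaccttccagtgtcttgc
Fcgr4: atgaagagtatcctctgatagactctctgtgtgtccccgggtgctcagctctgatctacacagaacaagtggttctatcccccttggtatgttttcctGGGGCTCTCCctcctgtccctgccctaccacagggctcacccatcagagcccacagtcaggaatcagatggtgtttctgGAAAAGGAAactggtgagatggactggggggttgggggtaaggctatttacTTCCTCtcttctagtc
Both strands were searched for 6 motifs, a PU.1 core (GAGGAA), an ISRE-like (GAAANNGAA), a GAS-like (TTCNNNGAA), an AP-1 (TGANTCA) and a C/EBP-like (TTGCNNAA) motif, and the NF-kB motif. The windows of Trem1, Trem2, Fcgr1, Fcgr3 and Fcgr4 each held the PU.1 core, which 23.1% of the 27025 promoters in the table hold. Trem1 and Fcgr1 also held a GAS-like match, at 171 and 109 bases before the start, which 7.18% of all promoters hold, and the GAS-like and PU.1 matches of Trem1 follow each other directly in the capitals. Trem2 held an AP-1 match 9 bases before the start, against 6.87% of all promoters. Fcgr4 held an ISRE-like match at 73 bases and an NF-kB match at 152 bases, against 7.16% and 7.01% of all promoters. Fcgr3, whose sequence is not shown, held an NF-kB and a C/EBP-like match, the latter in 9.55% of all promoters. Hcst, Fcer1g and Fcgr2b held none of the 6. The windows of Fcgr3 and Fcgr2b lie wholly inside the gene spans given above, and that of Fcer1g in part. For these genes the bases searched before the RefSeq start are therefore not, or not all, upstream of the annotated gene. These are matches of letters in short windows, which were not tested as binding sites.

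The libraries held 39282181 to 61949143 counted read pairs. Some of them stood apart from the other replicates of their groups. By the chi-square per gene between libraries, which sampling noise alone puts at 1, IRF5 KO LPS DMSO replicate 3 was at 441 and 425 from replicates 1 and 2, which were at 2.33 from each other. WT LPS defactinib replicate 3 was at 140 and 183 from replicates 1 and 2, which were at 84.1. At rest the distances were smaller, with WT unstimulated replicate 3 at 55.2 and 52.4 from the others, which were at 3.82, and IRF5 KO unstimulated replicate 2 at 36.8 and 33.1 from the others, which were at 7.09. For members whose side of the threshold changes without 1 of these 4 libraries, the value or the number of refits that lost it is given, and for the other genes only some such values are. Since the spread, the filter and the p adjustment are shared by all groups, leaving out a library can also move calls in groups it is not part of. Irf5 itself had 587, 606 and 650.3 CPM (counts scaled to a common library size) in the WT unstimulated libraries and 335, 397 and 364 in the IRF5 KO unstimulated libraries, a log2 difference of -0.75 (edgeR quasi-likelihood test, adjusted p = 0.00492). After LPS it had 434, 475 and 443 CPM in WT LPS DMSO and 435, 431 and 345 CPM in IRF5 KO LPS DMSO, and the genotypes overlapped. With LPS and defactinib it had 213, 234 and 379 CPM in WT and 364, 392 and 353 CPM in IRF5 KO, a log2 difference of 0.42 (adjusted p = 0.0545), opposite in sign to that at rest. Without WT LPS defactinib replicate 3 it was 0.70 (adjusted p = 0.000263). The table gives 1 count per gene and not per exon, so a deletion of some exons could not be seen in it, and IRF5 KO stands for the label throughout. The kinase genes Ptk2b (PYK2) and Ptk2 (FAK) changed by -0.62 (adjusted p = 2.44e-05) and 0.48 (adjusted p = 0.0129) with defactinib in WT cells.

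Per length, the adaptor genes Tyrobp and Fcer1g and the receptor gene Fcgr3 were the most abundant members. As RPKM, read pairs scaled by library size and by the length of the exons, WT unstimulated cells had 381 ± 9.94 (SD, n = 3) of Tyrobp, 328 ± 10.8 of Fcer1g and 265 ± 8.06 of Fcgr3. The inhibitory receptor gene Fcgr2b followed with 60.4 ± 0.199 RPKM. The high-affinity IgG receptor gene Fcgr1 had 28.8 ± 2.33 RPKM, Trem1 21.95 ± 4.87 and Trem2 14.9 ± 1.06. Hcst, whose product carries a motif that binds PI3 kinase and not an ITAM, had 5.74 ± 0.146 RPKM. Trem3 had 1.69 ± 0.101 and Fcgr4 0.457 ± 0.119 RPKM, and Fcgr4 rested on 20 to 113 read pairs in a library. The plot of RPKM values by gene shows this order and how the groups spread around it.

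**Figure D1:**
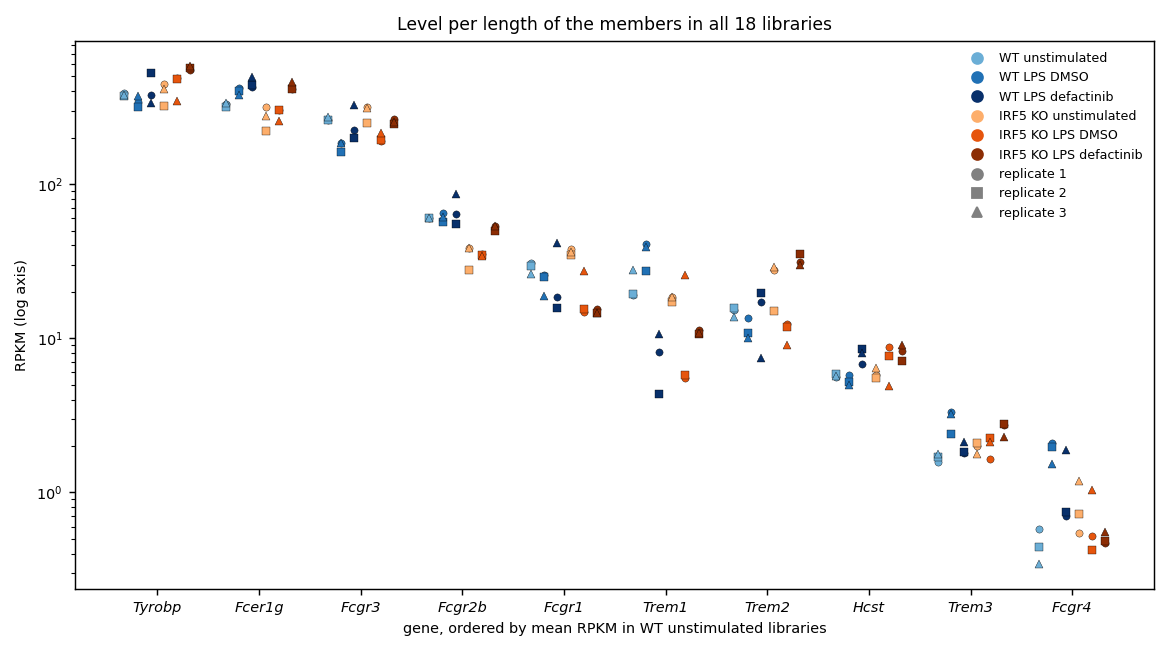
Level of the 10 genes as RPKM (scaled by library size and exonic length, log axis) in all 18 libraries, 1 point per library, coloured by group and shaped by replicate number. Tyrobp, Fcer1g and Fcgr3 lie highest, and Trem3 and Fcgr4 lowest in every group.

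In WT cells, LPS raised 1 of the 10 members beyond a 2-fold change. A gene counts as called with an FDR (false discovery rate) under 0.05 and a log2 fold change past 1, which 21.3% of all tested genes reached in this comparison, and 41.8% were below the FDR alone. The called gene was Fcgr4, a receptor for IgG2a and IgG2b complexes. It had 0.73, 0.558 and 0.433 CPM in the unstimulated libraries and 2.62, 2.46 and 1.93 CPM after LPS. The groups did not overlap, and the log2 change was 2.02 ± 0.42 (SE, n = 3 per group, edgeR adjusted p = 0.00111). Trem3 and Fcgr3 passed the FDR alone. Trem3, a TREM receptor gene next to Trem1, rose from 1.57, 1.69 and 1.77 CPM to 3.32, 2.38 and 3.23 CPM (log2 change 0.82 ± 0.18, adjusted p = 0.00176). Fcgr3, the low-affinity activating receptor gene, fell from 449.7, 453 and 476 CPM to 319, 282 and 323 CPM (log2 change -0.58 ± 0.14, adjusted p = 0.00415). All 3 kept an adjusted p under 0.05 in each of the 18 refits without 1 library. Trem1 had 56.8, 57.9 and 82.6 CPM before and 123, 82.0 and 117 CPM after LPS, and Trem2 had 75.1, 77.9 and 67.8 CPM before and 66.9, 53.2 and 49.4 CPM after. Neither passed with all libraries, and Trem1 passed the FDR without IRF5 KO LPS DMSO replicate 3 (0.70, adjusted p = 0.024), as did Fcer1g (0.29, adjusted p = 0.024, 0.0482 without WT LPS defactinib replicate 3 and 0.024 without IRF5 KO unstimulated replicate 2). Scaled by library size alone, which lowers the median of all genes by 0.38 here, 1 member was higher and 5 were lower past the FDR, and Trem3 did not pass. The Trem1 ranges overlapped and those of Trem2 did not. The median log2 change of the members was -0.05, beside -0.00 over all tested genes. In bulk RNA, a change in the number of cells of a type and a change in RNA per cell cannot be told apart. The values of all libraries are in the plot of levels by group.

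**Figure D2:**
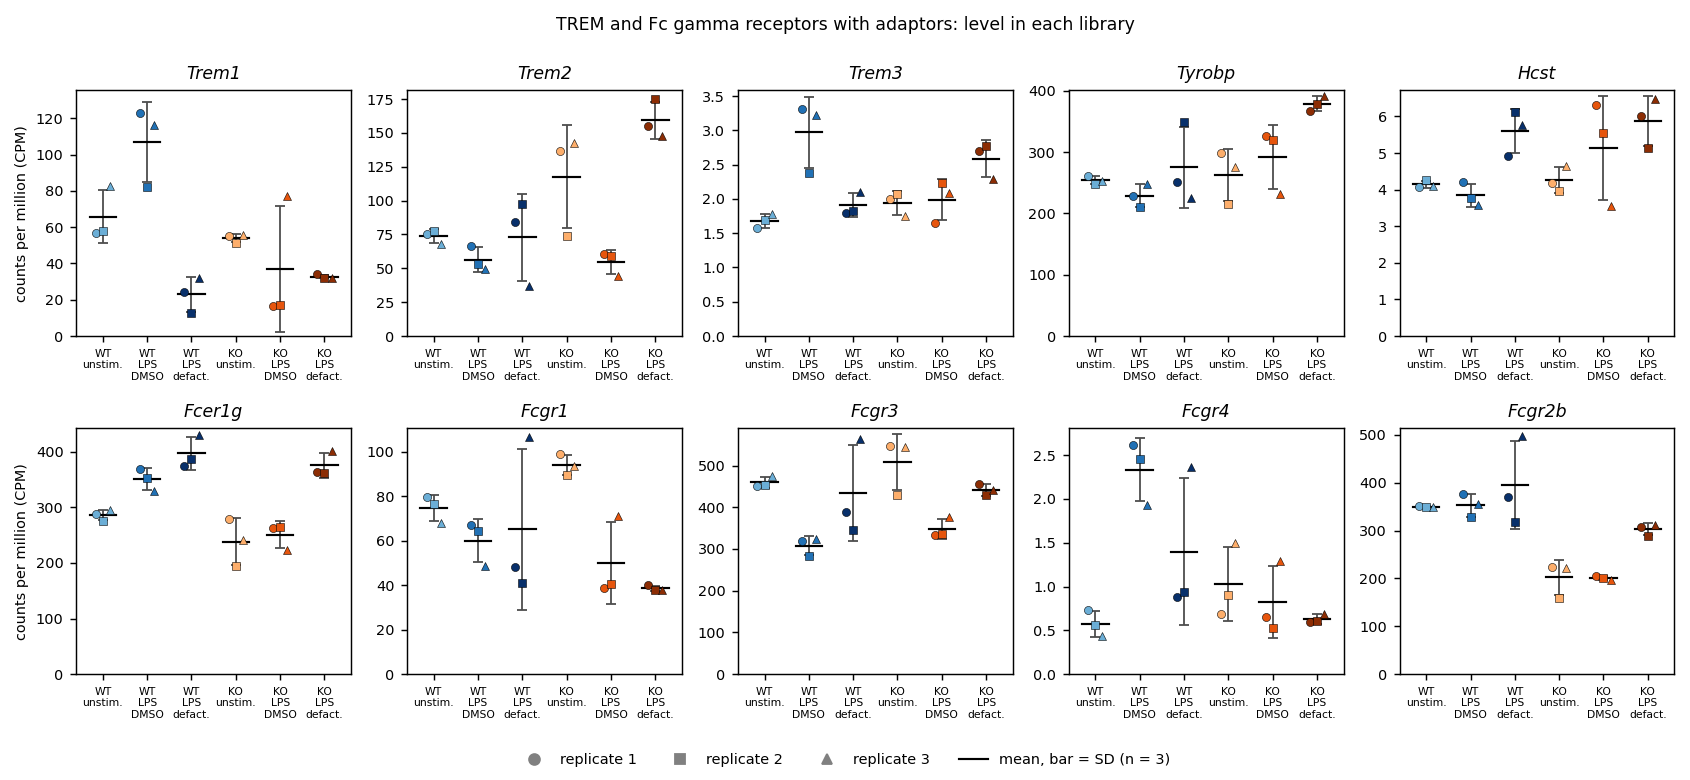
Level of each of the 10 genes as CPM (scaled by library size, linear axis from 0) in the 18 libraries, by group. Points are libraries, shaped by replicate number, lines are means and bars are SD of 3 libraries. Replicate 3 of IRF5 KO LPS DMSO lies far above replicates 1 and 2 for Trem1 and Fcgr1, and Trem2 is highest in the IRF5 KO LPS defactinib libraries.

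In IRF5 KO cells, LPS led to no called member among the 9 tested, with edgeR and likewise with DESeq2 and limma-voom, against 13.3% of all genes, and 2 of the 9 were below an unadjusted p of 0.05. These were Fcgr1 and Fcgr3, which also passed the FDR alone, as did 37.5% of all genes. Fcgr1 went from 99.0, 89.6 and 93.4 CPM to 38.6, 40.3 and 71.0 CPM, a log2 change of -0.91 ± 0.29 (adjusted p = 0.0252). Its level in replicate 3 lay well above that in replicates 1 and 2. Without that replicate Fcgr1 was called, at -1.26 (adjusted p = 0.00268), and its FDR was lost without replicate 1 (adjusted p = 0.12) or replicate 2 (0.114) of IRF5 KO LPS DMSO, or replicate 1 (0.0665) or replicate 3 (0.0595) of IRF5 KO unstimulated. Fcgr3 fell from 548, 430.3 and 545 CPM to 333, 337 and 375 CPM (log2 change -0.54 ± 0.14, adjusted p = 0.011), with an adjusted p of 0.0526 without replicate 1 and 0.05 without replicate 2 of IRF5 KO LPS DMSO.

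Trem1 depended most on the replicate in that group. It had 55.1, 51.3 and 55.5 CPM in the IRF5 KO unstimulated libraries and 16.6, 17.3 and 77.4 CPM after LPS. Replicates 1 and 2 lay below every unstimulated library and replicate 3 above them. The test over 3 libraries did not pass, and without replicate 3 Trem1 was called with a log2 change of -1.68 (adjusted p = 0.000183). With replicate 3 as the only library of its group the sign turned, to 0.53 (adjusted p = 0.484). Hcst passed the FDR without replicate 3 as well, higher with LPS (0.47, adjusted p = 0.00954). Trem2, given here without a test because its choice used these libraries, had 137, 74.2 and 142 CPM at rest and 60.8, 58.8 and 44.6 CPM after LPS. The groups did not overlap and the log2 change was -1.11 ± 0.29. It was -0.98 without replicate 3 and -1.39 with replicate 3 as the only library of its group.

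The response to LPS in the presence of defactinib was compared with unstimulated cells of the same genotype. In WT cells 2 of 10 members were called, against 24.9% of all genes, and 3 passed the FDR alone, against 53.2%. Trem1 fell from 56.8, 57.9 and 82.6 CPM to 24.3, 12.9 and 31.8 CPM, below every unstimulated library (log2 change -1.52 ± 0.47, edgeR adjusted p = 0.0144). Its adjusted p was 0.0503 without WT unstimulated replicate 3 and 0.0625 without WT LPS defactinib replicate 2. Fcgr4 rose to 0.884, 0.938 and 2.36 CPM (log2 change 1.27 ± 0.42, adjusted p = 0.0195). Replicate 3 stood far above the others, and without it the change was 0.68 (adjusted p = 0.16). The Fcgr4 call was also lost without WT unstimulated replicate 2 (adjusted p = 0.057) or replicate 3 (0.0735). Fcer1g rose from 289, 276 and 295 CPM to 375, 386 and 431 CPM (log2 change 0.47 ± 0.11, adjusted p = 0.00324), and no single library changed that. Without WT LPS defactinib replicate 3, Fcgr3 passed the FDR as well, lower than at rest (-0.31, adjusted p = 0.0244), and so did Fcgr1 (-0.74, adjusted p = 0.00996). Hcst passed without IRF5 KO LPS DMSO replicate 3 (0.43, adjusted p = 0.00899). Scaled by library size alone, Trem1 and Fcer1g passed and Fcgr4 did not.

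In IRF5 KO cells, LPS with defactinib lowered Fcgr1 and raised 3 adaptor genes and Fcgr2b. Fcgr1 was the single called member of 9, against 24% of all genes. It fell from 99.0, 89.6 and 93.4 CPM to 40.0, 37.6 and 37.9 CPM, a 2.44-fold lower level (log2 change -1.29 ± 0.29, adjusted p = 0.0021, at most 0.00986 without any 1 library). The other 4 members that passed the FDR, which 53.4% of all genes did, were all higher. Fcer1g had 278, 194 and 241 CPM at rest and 364, 362 and 402 CPM with LPS and defactinib (log2 change 0.66 ± 0.12, adjusted p = 0.00036). Fcgr2b had 224, 159.9 and 222 CPM at rest and 308, 289 and 312 CPM after (log2 change 0.59 ± 0.14, adjusted p = 0.00304). Tyrobp had 298, 215 and 275 CPM at rest and 367, 379 and 392 CPM after (log2 change 0.53 ± 0.16, adjusted p = 0.0118, and 0.0661 without IRF5 KO unstimulated replicate 2). In all 3 genes the libraries of the groups did not overlap. Hcst was at 4.19, 3.96 and 4.64 CPM at rest and 6.01, 5.13 and 6.48 CPM after (log2 change 0.46 ± 0.18, adjusted p = 0.0436), and it lost the FDR in 12 of the 18 refits without 1 library, with adjusted p up to 0.146. Scaled by library size alone, which lowers the median of all genes by 0.36 here, Fcer1g remained below the FDR at 0.30 (adjusted p = 0.0139), while Fcgr2b (0.154), Tyrobp (0.347) and Hcst (0.64) did not pass. Fcgr3 passed as lower by that scaling (-0.56, adjusted p = 0.00349), so that 1 member was higher and 2 were lower, in place of 4 and 1. Without IRF5 KO LPS DMSO replicate 3, which is in neither of these groups, Trem1 (-0.72, adjusted p = 0.0194) and Trem3 (0.41, adjusted p = 0.049) passed as well. Trem2, without a test, was at 137, 74.2 and 142 CPM at rest and at 155, 175 and 148 CPM with LPS and defactinib, a log2 difference of 0.44 ± 0.29.

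Under LPS, defactinib was compared with its DMSO vehicle. In WT cells it lowered Trem1 from 123, 82.0 and 117 CPM to 24.3, 12.9 and 31.8 CPM. Every defactinib library was below every DMSO library, a 4.66-fold lower level (log2 change -2.22 ± 0.48, n = 3 per group, edgeR adjusted p = 0.00123). The change was between -2.51 and -1.93 without any 1 library, with an adjusted p of at most 0.00801. Trem1 was 1 called member of 10, against 29.1% of all genes, and 57% of all genes passed the FDR alone. Trem3 fell with it, from 3.32, 2.38 and 3.23 CPM to 1.79, 1.83 and 2.11 CPM (log2 change -0.64 ± 0.18, adjusted p = 0.00761). Fcgr3 rose from 319, 282 and 323 CPM to 389, 346 and 564 CPM (log2 change 0.49 ± 0.14, adjusted p = 0.00874), and was 0.28 without WT LPS defactinib replicate 3, still below the FDR (adjusted p at most 0.034 over the refits). Hcst rose from 4.20, 3.76 and 3.58 CPM to 4.93, 6.11 and 5.75 CPM (log2 change 0.54 ± 0.18, adjusted p = 0.0206). Its FDR was lost without WT LPS DMSO replicate 2 (adjusted p = 0.0509) or replicate 3 (0.0618), or WT LPS defactinib replicate 2 (0.0669). Fcgr4 did not pass with all libraries and was called without WT LPS defactinib replicate 3, at -1.34 (adjusted p = 0.00946). Scaled by library size alone, Trem3 did not pass, Trem1 was lower, and 5 members, Tyrobp, Hcst, Fcer1g, Fcgr2b and Fcgr3, were higher past the FDR.

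Trem2 in WT cells had 66.9, 53.2 and 49.4 CPM with LPS and DMSO and 84.6, 97.7 and 36.7 CPM with LPS and defactinib. Replicates 1 and 2 lay above the DMSO libraries and replicate 3 below them, and the test did not pass. Without replicate 3 of the defactinib group it passed the FDR, higher with defactinib (0.71, adjusted p = 0.0131), as did Tyrobp (0.42, adjusted p = 0.043). The Fcgr1 libraries split the other way, with 66.8, 64.3 and 48.8 CPM in DMSO and 48.0, 40.8 and 107 CPM in defactinib. Fcgr2b had 376, 328 and 356 CPM in DMSO and 371, 318 and 497 CPM in defactinib. For each of these 3 genes, the groups overlapped and WT LPS defactinib replicate 3 lay outside the range of the other 5 libraries.

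In IRF5 KO cells the same comparison holds the values that chose the set, and it is given as a description. Trem2 had 60.8, 58.8 and 44.6 CPM with LPS and DMSO and 155, 175 and 148 CPM with LPS and defactinib. The groups are far apart, a 2.91-fold higher level with defactinib (log2 difference 1.54 ± 0.29), of 1.41 without IRF5 KO LPS DMSO replicate 3 and of 1.82 with that replicate as the only library of its group. Fcgr2b had 205, 200.1 and 197 CPM with DMSO and 308, 289 and 312 CPM with defactinib (log2 difference 0.60, and 0.58 without IRF5 KO LPS DMSO replicate 3). Fcer1g had 264, 266 and 223 CPM with DMSO and 364, 362 and 402 CPM with defactinib (0.58, and 0.51 without that replicate). Tyrobp, the partner of Trem2, had 326, 319 and 232 CPM with DMSO and 367, 379 and 392 CPM with defactinib (0.38, and 0.23 without it). Of the members other than Trem2, the libraries of Fcgr2b, Fcer1g, Tyrobp, Trem3 and Fcgr3 did not overlap, and all were higher with defactinib. By the same measure, so were 14.1% of all tested genes. Scaled by library size alone, the libraries of Trem3 and those of Fcgr3 overlapped. The summed CPM of 10 macrophage markers, of which Fcgr1 is 1, was 10744 to 15147 at rest, 10278 to 12756 with LPS and DMSO and 18645 to 19524 with LPS and defactinib. Lyz2, a marker on this list, had a mean log2 CPM of 13.3 over the 18 libraries, so the sum follows mostly this gene. None of the markers besides Fcgr1, which is not tested here, was called in this comparison. The part of this sum in these differences was not tested. In this comparison 0.919% of all tested genes were called and 3.36% passed the FDR alone. Trem1 had 16.6, 17.3 and 77.4 CPM with DMSO and 34.0, 32.2 and 32.2 CPM with defactinib, so the sign of its difference is set by replicate 3. It was -0.18 with all libraries, 0.96 without replicate 3 and -1.25 with replicate 3 alone. The differences of Hcst, Fcgr1 and Fcgr4, of 0.19, -0.38 and -0.41, were -0.02, -0.03 and 0.08 without replicate 3. The map of log2 changes sets these comparisons side by side.

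**Figure D3:**
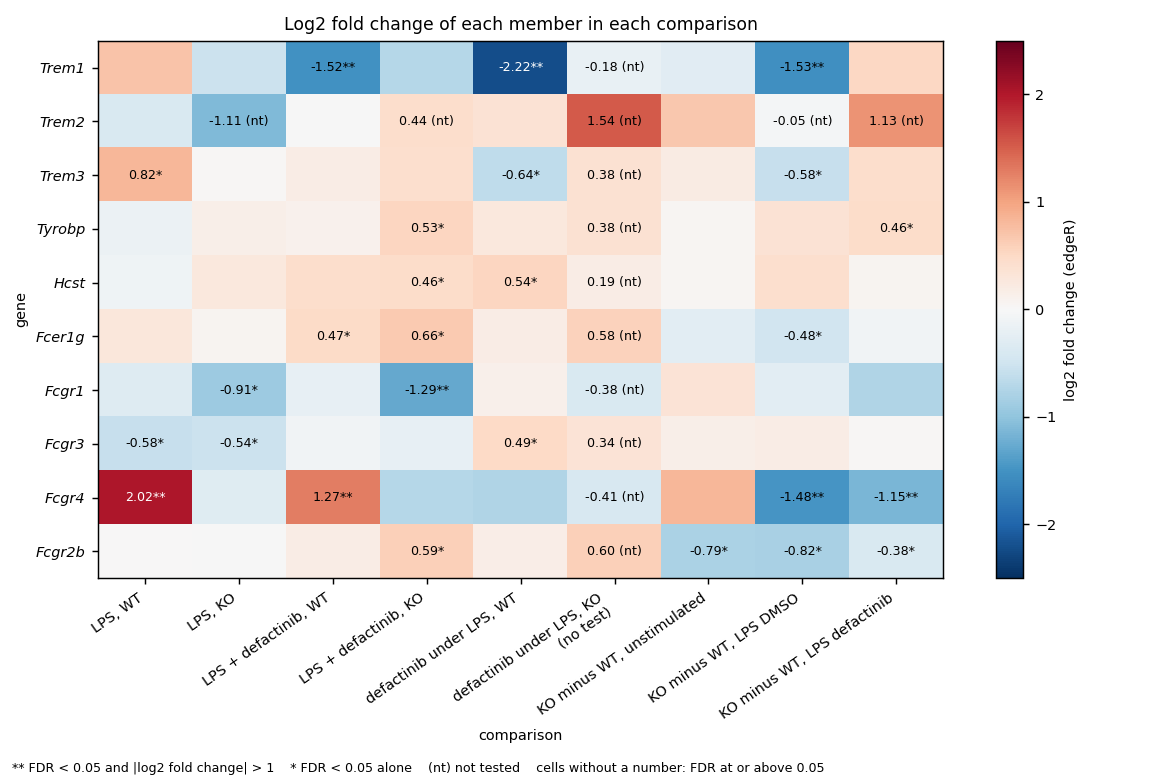
Log2 fold change (colour, edgeR) of the 10 genes (rows) in 9 comparisons (columns). Numbers are printed for values that passed the FDR of 0.05 (1 star), those also beyond a log2 change of 1 (2 stars) and values not tested (nt), and the comparisons share libraries. Trem1 falls with defactinib in WT by 2.22, and Fcgr2b is lower in IRF5 KO cells in all 3 conditions.

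Genotype was compared within each condition, as IRF5 KO minus WT. At rest no member was called, with edgeR and likewise with DESeq2 and limma-voom, against 7.31% of all genes, and 3 of 10 were below an unadjusted p of 0.05. Fcgr2b, the inhibitory IgG receptor gene, passed the FDR alone, as did 15.3% of all genes. It had 351, 349.9 and 348 CPM in WT and 224, 159.9 and 222 CPM in IRF5 KO cells, with no overlap (log2 difference -0.79 ± 0.14, adjusted p = 0.00117, at most 0.00729 without any 1 library). Trem2 had 75.1, 77.9 and 67.8 CPM in WT and 137, 74.2 and 142 CPM in IRF5 KO, where replicate 2 lay within the WT range and the other replicates above it, and the test did not pass (it passed the FDR without WT LPS defactinib replicate 3, at 0.67 with an adjusted p of 0.03, and without IRF5 KO unstimulated replicate 2, at 0.92 with an adjusted p of 0.0492). Fcgr1 had 79.6, 76.4 and 67.9 CPM in WT and 99.0, 89.6 and 93.4 CPM in IRF5 KO. These groups did not overlap, and the test did not pass.

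After LPS with DMSO, 2 of 9 members were called between the genotypes, both lower in IRF5 KO, against 25.8% of all genes. Trem1 had 123, 82.0 and 117 CPM in WT and 16.6, 17.3 and 77.4 CPM in IRF5 KO (log2 difference -1.53 ± 0.47, adjusted p = 0.0135). It was -2.66 without IRF5 KO LPS DMSO replicate 3, and with that replicate as the only one of its group it was -0.45 (adjusted p = 0.368). Without replicate 1 or replicate 2 of that group the adjusted p was 0.0577 and 0.0598. Fcgr4 had 2.62, 2.46 and 1.93 CPM in WT and 0.654, 0.53 and 1.29 CPM in IRF5 KO (log2 difference -1.48 ± 0.41, adjusted p = 0.00753). It was -1.97 without replicate 3 and -0.84 with replicate 3 alone (adjusted p = 0.236). In both genes every IRF5 KO library lay below every WT library. Fcgr2b (-0.82 ± 0.14, adjusted p = 0.00026), Fcer1g (-0.48 ± 0.11, adjusted p = 0.00262) and Trem3 (-0.58 ± 0.18, adjusted p = 0.015) also passed the FDR, as did 52.2% of all genes, so that all 5 members past it were lower in IRF5 KO. Without IRF5 KO LPS DMSO replicate 3 these were -0.80, -0.41 and -0.62 and still passed, while Tyrobp (0.50, adjusted p = 0.0072) and Hcst (0.63, adjusted p = 0.00125) passed as higher in IRF5 KO. Scaled by library size alone, which raises the median of all genes by 0.25 here, Tyrobp (0.59), Hcst (0.65) and Fcgr3 (0.44) passed as higher and Trem3 did not pass. Fcgr2b had 376, 328 and 356 CPM in WT and 205, 200.1 and 197 CPM in IRF5 KO. The Trem3 value lost the FDR without WT LPS DMSO replicate 1 (adjusted p = 0.068) or replicate 3 (0.0579), or IRF5 KO LPS DMSO replicate 1 (0.0837). Trem2, without a test, differed by -0.05 and its libraries overlapped.

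With LPS and defactinib, 1 of 9 members was called, against 17.3% of all genes, and 3 passed the FDR, against 36.3%. Fcgr4 had 0.884, 0.938 and 2.36 CPM in WT and 0.592, 0.605 and 0.691 CPM in IRF5 KO (log2 difference -1.15 ± 0.42, adjusted p = 0.045). The call was lost in 10 of 18 refits without 1 library, and it was -0.56 (adjusted p = 0.31) without WT LPS defactinib replicate 3. Tyrobp had 251, 349 and 225 CPM in WT and 367, 379 and 392 CPM in IRF5 KO (log2 difference 0.46 ± 0.16, adjusted p = 0.0341, lost in 8 of 18 refits, up to 0.182). Fcgr2b had 371, 318 and 497 CPM in WT and 308, 289 and 312 CPM in IRF5 KO (-0.38 ± 0.14, adjusted p = 0.0458, lost in 9 of 18 refits, up to 0.211). Without WT LPS defactinib replicate 3 all 3 lost the FDR. Without IRF5 KO LPS DMSO replicate 3, Trem3 (0.45, adjusted p = 0.0467) and Fcgr1 (-0.76, adjusted p = 0.0278) passed as well, and by library size alone Fcgr1 passed and Tyrobp did not. Without WT LPS defactinib replicate 2, Fcgr1 was called as well, at -1.02 (adjusted p = 0.0142). Trem2, as a description, had 84.6, 97.7 and 36.7 CPM in WT and 155, 175 and 148 CPM in IRF5 KO, with no overlap and a log2 difference of 1.13 ± 0.29, which was 0.78 without WT LPS defactinib replicate 3.

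The interactions test whether the genotypes respond differently. For LPS against rest, Fcgr4 was the called member of 9, against 9.83% of all genes, and Trem3 passed the FDR alone, as did 17.1% of all genes. Fcgr4 rose with LPS in WT and went from 0.686, 0.904 and 1.49 CPM to 0.654, 0.53 and 1.29 CPM in IRF5 KO. The difference of the log2 changes was -2.31 ± 0.59 (edgeR adjusted p = 0.0152, at most 0.0473 without any 1 library), and -1.66 (adjusted p = 0.115) with IRF5 KO LPS DMSO replicate 3 alone. The interaction of Trem3 was -0.79 ± 0.26 (adjusted p = 0.0461), and it lost the FDR in 14 of 18 refits. Without IRF5 KO LPS DMSO replicate 3, Trem1 was called too, at -2.38 (adjusted p = 0.000136), and Hcst passed the FDR at 0.58 (adjusted p = 0.0222). For LPS with defactinib against rest, 8.22% of all genes were called and 15.2% passed the FDR alone. Fcgr4 was the 1 member in both counts, at -1.98 ± 0.60 (adjusted p = 0.035), which was lost in 8 of 18 refits, at most 0.105. Without WT LPS defactinib replicate 3 it was -1.38 (adjusted p = 0.0961), and Fcgr2b passed the FDR at 0.60 (adjusted p = 0.0202). For Fcgr1 that interaction was called in 3 of the refits, without WT LPS defactinib replicate 1 (adjusted p = 0.0482), without replicate 2 of that group (0.0314) and without IRF5 KO LPS DMSO replicate 3 (0.0401). As a description, the interaction of genotype and defactinib was 2.04 ± 0.66 for Trem1, 1.17 ± 0.41 for Trem2 and 1.02 ± 0.26 for Trem3, and lay between -0.50 and 0.43 for the other 7 members. Without IRF5 KO LPS DMSO replicate 3 that of Trem1 was 3.18, and with that replicate alone it was 0.95.

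Ratios of 2 members within a library do not depend on the scaling between libraries. They were chosen after the levels were seen and are given without a test. The ratio of the activating Fcgr3 to the inhibitory Fcgr2b, per length, was 4.28, 4.32 and 4.55 in the WT unstimulated libraries and 8.16, 8.98 and 8.19 in the IRF5 KO unstimulated libraries. With LPS and DMSO it was 2.83, 2.87 and 3.02 in WT and 5.43, 5.61 and 6.35 in IRF5 KO. With LPS and defactinib it was 3.50, 3.63 and 3.78 in WT and 4.94, 4.93 and 4.72 in IRF5 KO. The genotypes did not overlap in any condition, and the libraries that stood apart did not change that. The ratio of Trem1 to Trem2 was 3.04, 2.54 and 3.89 in WT LPS DMSO and 0.474, 0.219 and 1.43 in WT LPS defactinib. It was 0.450, 0.485 and 2.87 in IRF5 KO LPS DMSO and 0.362, 0.304 and 0.359 in IRF5 KO LPS defactinib. The ratio of Tyrobp to its partner Trem2 was 39.8, 40.2 and 38.6 in IRF5 KO LPS DMSO, and 17.5, 16.1 and 19.6 in IRF5 KO LPS defactinib, so replicate 3 of IRF5 KO LPS DMSO was like its group by this measure and unlike it by the ratio of Trem1 to Trem2.

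**Figure D4:**
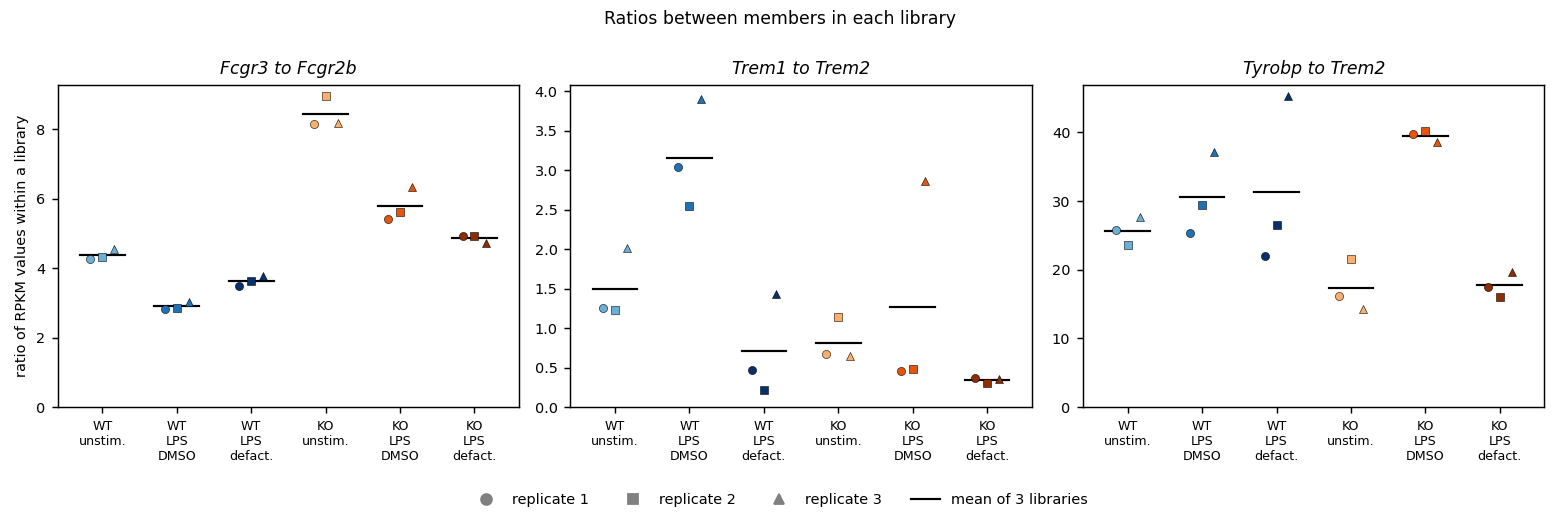
Ratios of RPKM values between 2 genes within each library (linear axis from 0), by group. Points are libraries, shaped by replicate number, and lines are means of 3 libraries. The ratio of Fcgr3 to Fcgr2b is higher in IRF5 KO than in WT libraries in each condition, from 8.16 to 8.98 against 4.28 to 4.55 at rest.

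The TREM-like genes of the same cluster, Treml1, Treml2 and Treml4, encode receptors related to the TREMs, and all 3 of them were called higher in IRF5 KO than in WT cells after LPS with DMSO, where 25.8% of all genes were called. Treml2 had 34.9, 38.2 and 38.0 CPM in WT and 212, 271 and 213 CPM in IRF5 KO at rest (log2 difference 2.65, edgeR adjusted p = 3.11e-06). After LPS with DMSO it had 37.9, 24.8 and 21.2 CPM in WT and 186, 189 and 220.2 CPM in IRF5 KO (2.83, adjusted p = 6.96e-07), and with LPS and defactinib 51.9, 29.6 and 67.5 CPM in WT and 133, 135 and 127 CPM in IRF5 KO (1.41, adjusted p = 0.00028). Treml4 had 4.38, 4.53 and 4.40 CPM in WT LPS DMSO and 22.9, 22.7 and 27.0 CPM in IRF5 KO LPS DMSO. Treml4 was at 5.42, 5.22 and 5.63 CPM in WT LPS defactinib and at 6.36, 7.01 and 6.40 CPM in IRF5 KO LPS defactinib. Treml1 stayed at or below 1.04 CPM in every library.

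**Figure D5:**
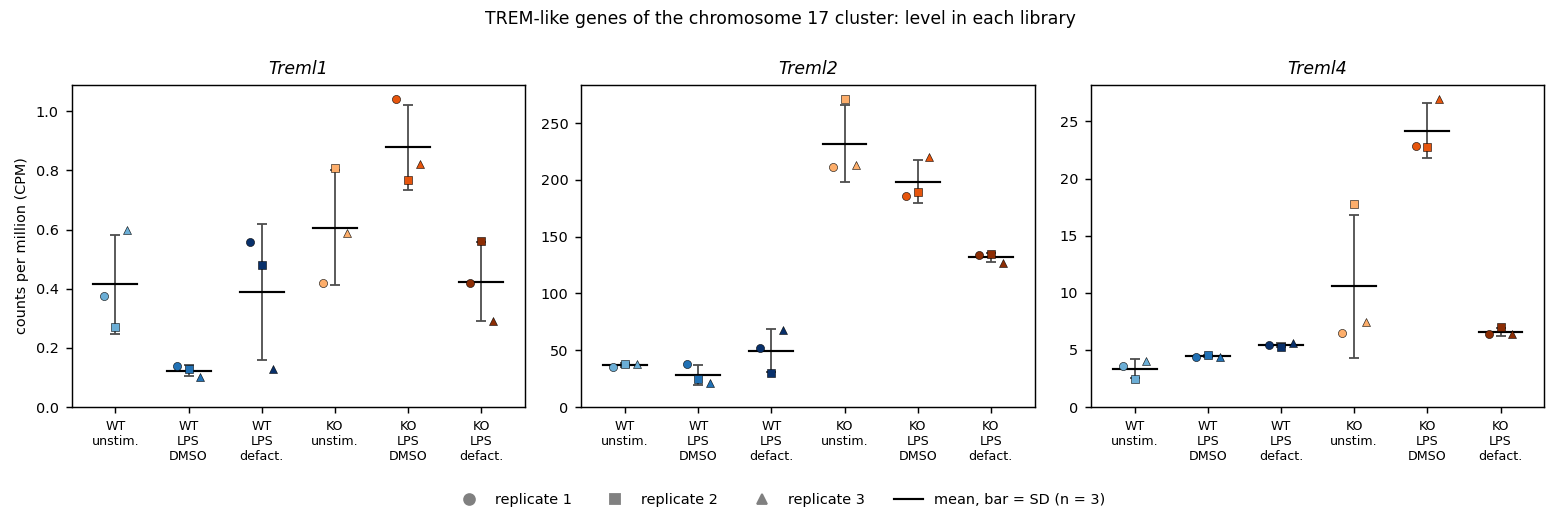
Level of Treml1, Treml2 and Treml4 as CPM (scaled by library size, linear axis from 0) in the 18 libraries, by group. Points are libraries, shaped by replicate number, lines are means and bars are SD of 3 libraries. Treml2 is higher in all IRF5 KO libraries (127 CPM or more) than in all WT libraries (67.5 CPM or less).

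Downstream of the ITAM adaptors, 22 genes of the SYK pathway were tested. With LPS in WT cells 5 were called higher and 6 lower (3 and 9 by library size alone), against 21.3% of all genes, with a median log2 change of 0.00 beside -0.00 over all genes. Syk, the kinase that docks on the ITAM, had 703, 697 and 769.8 CPM with LPS and DMSO and 266, 230.2 and 411 CPM with LPS and defactinib in WT cells, and it was among 6 called lower with defactinib, against 2 called higher, where 29.1% of all genes were called and more of them lower (2916) than higher (1636). Src fell most in that comparison (log2 change -2.70, edgeR adjusted p = 0.000736). In IRF5 KO against WT after LPS with DMSO, 5 of the 22 were called lower and 2 higher, against 25.8% of all genes, and 6 lower and 3 higher without IRF5 KO LPS DMSO replicate 3. By library size alone this balance turned, to 3 lower and 4 higher. Syk was at 235, 239 and 483 CPM in IRF5 KO LPS DMSO, where replicate 3 again lay above replicates 1 and 2, and Vav2, an exchange factor, had the largest change of those called, at 2.00 (adjusted p = 7.43e-07, and 2.19 without replicate 3). Malt1 and Pik3cd were the other most abundant genes of the list. Malt1 had 437, 447 and 531 CPM at rest and 1231, 1297 and 1427 CPM with LPS in WT, and Pik3cd had 367, 383 and 358 CPM at rest and 155, 168 and 153 CPM with LPS.

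Among inhibitory receptors and phosphatases, 19 genes were tested, and defactinib in WT cells lowered 3 and raised 3 (3 and 5 by library size alone), a share near the 29.1% of all genes. The largest change was in Lilrb4a, an inhibitory receptor of myeloid cells, from 307, 434 and 242 CPM with DMSO to 26.4, 16.5 and 18.6 CPM with defactinib (log2 change -4.00, edgeR adjusted p = 9.29e-06, and -3.92 without WT LPS defactinib replicate 3). Sirpa, the receptor for CD47, fell from 678, 745 and 820.2 CPM to 262, 295 and 354 CPM and was called, with and without that replicate. In IRF5 KO LPS DMSO, Lilrb4a had 36.5, 37.2 and 163 CPM and Sirpa 218, 221 and 668 CPM, with replicate 3 apart in both. Inpp5d (SHIP1), the lipid phosphatase recruited by FcγRIIB, was called lower with LPS in WT (-1.93, adjusted p = 4.78e-09). Of 17 other receptors that pair with these adaptors, LPS in WT raised 3 and lowered 3 (2 and 3 by library size alone), against 21.3% of all genes, and the genotype at rest had 4 higher and 2 lower (4 and 1 by library size alone), against 7.31%. Clec4e (Mincle), which signals through the Fc receptor gamma chain, had 127, 126 and 155 CPM at rest and 1122, 1074 and 1095 CPM with LPS in WT cells, and 129, 104 and 123 CPM at rest and 211, 213 and 497 CPM with LPS in IRF5 KO cells (interaction -1.64, adjusted p = 0.0352). Without IRF5 KO LPS DMSO replicate 3 that interaction was -2.18 (adjusted p = 0.00158), and scaled by library size alone it did not pass (-1.46, adjusted p = 0.0575). Of 5 other Fc receptor genes tested, 2 were called lower in IRF5 KO at rest and 0 higher, against 7.31% of all genes. The neonatal Fc receptor gene Fcgrt had 11.7, 14.7 and 13.7 CPM in IRF5 KO against 43.9, 42.6 and 37.1 CPM in WT (-1.63, adjusted p = 0.00106). Fcrls had 28.6, 33.4 and 27.7 CPM against 90.0, 93.0 and 83.4 CPM (-1.57, adjusted p = 0.00215).

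Among 10 genes of TREM ligands and sheddases, Lgals3, App and Adam17 were the most abundant, and 3 of the 10 passed the FDR alone between the genotypes at rest (15.3% of all genes did), 5 after LPS with DMSO (52.2%) and 3 with defactinib in WT (57%). With LPS in WT 2 of the 10 were called, both higher, against 21.3% of all genes. With LPS and defactinib in WT 3 were called, all higher, against 24.9%. Clu (clusterin), an apolipoprotein and TREM2 ligand, was among them with LPS (1.01, adjusted p = 0.0179) and with LPS and defactinib (1.92, adjusted p = 0.000269). Apoe, another TREM2 ligand, was among them with LPS and defactinib (1.16, adjusted p = 0.00657). With LPS and defactinib, Clu was lower in IRF5 KO than in WT (-1.34, adjusted p = 0.00423), the 1 called of 10, against 17.3% of all genes. Pglyrp1, a peptidoglycan recognition protein and TREM1 ligand, was called higher with LPS in WT (1.31, adjusted p = 0.00028) and in IRF5 KO (1.19, adjusted p = 0.00219), at levels of 1.44 to 8.70 CPM over all libraries. By library size alone Clu did not pass with LPS in WT (0.63, adjusted p = 0.0944), Pglyrp1 passed the FDR alone with LPS in WT (0.93) and in IRF5 KO (0.94), and Apoe passed it alone with LPS and defactinib in WT (0.98). Of 17 lipid-associated macrophage genes linked to TREM2, 15 passed the FDR with LPS and defactinib in IRF5 KO cells and were higher, each by less than a 2-fold change, and the list median log2 change was 0.49 beside 0.00 over all genes, of which 53.4% passed the FDR. Scaled by library size alone, 2 of the 17 passed, and the median was 0.13 beside -0.36 over all genes. In WT cells the same comparison had 3 called higher and 1 lower, a share near the 24.9% of all genes. Between the genotypes at rest, 3 of the 17 were called higher in IRF5 KO, against 7.31% of all genes, while past the FDR alone 3 were higher and 6 lower, with a list median of -0.17. Ctsl, the gene of the lysosomal protease cathepsin L, changed most of those called, from 148, 151 and 129.8 CPM in WT to 608, 428 and 524 CPM in IRF5 KO (1.86, adjusted p = 1.9e-07). Gpnmb, a lysosomal membrane glycoprotein gene, had 996, 1007 and 1037 CPM in WT and 2838, 2264 and 2936 CPM in IRF5 KO at rest (1.40, adjusted p = 7.1e-06).

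Over the 18 libraries, the genes whose log2 CPM ran most like Trem2 in a search of 8452 genes, those whose mean log2 CPM reached 3, were Fam234a (Pearson r = 0.87), Lyz2 (0.86) and Itgb5 (0.85). For Trem1 they were Zdhhc5, Cry1 and Gosr1 (0.96 each), for Fcgr1 Stk38, Snx19 and Pdcd1lg2 (0.92 each), and for Tyrobp Ctsa (0.95), Vti1b (0.94) and Ndufa4 (0.94). The libraries share groups, so these are descriptions of the group pattern. Without the 3 IRF5 KO LPS DMSO libraries the leading genes were Fam234a, Retsat and Dhrs7 for Trem2, Larp4b, Zdhhc5 and Cep85 for Trem1, Stk38, Dhx57 and Pdcd1lg2 for Fcgr1, and Ctsa, Ptgr1 and Vti1b for Tyrobp. Among the members, the closest pairs were Fcer1g and Fcgr2b (0.82), Tyrobp and Hcst (0.74) and Tyrobp and Trem2 (0.71). Trem1 and Hcst ran most strongly opposite (-0.84), and Trem1 and Trem2 were at -0.23. Without the 3 IRF5 KO LPS DMSO libraries these values were 0.78, 0.71, 0.82, -0.81 and -0.39.

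Marker genes of macrophages, 10 of which were tested and 1 of which is Fcgr1, summed to between 10008 and 19524 CPM in every library, and none of them was at 0. B cell markers, whose cells carry FcγRIIB as their main IgG receptor, summed to at most 0.945 CPM, T cell markers to at most 3.07 CPM and NK cell markers to at most 0.50 CPM. Markers of neutrophils, which express Trem1, Trem3 and Fcgr4, summed to 66.3 to 89.0 CPM in WT unstimulated and to 126 to 244 CPM in WT LPS DMSO, with 6 of 10 called higher and 1 lower, against 21.3% of all genes. In WT LPS defactinib, where Trem1 and Trem3 were lower than with DMSO, their sum was 124 to 177 CPM. Markers of dendritic cells, 7 of which were tested, summed to 141 to 153 CPM in WT unstimulated, 405 to 522 CPM in WT LPS DMSO and 116 to 196 CPM in WT LPS defactinib, where Trem1 was lower than with DMSO, and to 185 to 254, 314 to 362 and 328 to 342 CPM in the same conditions in IRF5 KO. In WT cells 2 of these 7 were called higher with LPS, against 21.3% of all genes. With defactinib under LPS in WT, 2 were called higher and 2 lower, against 29.1% of all genes. The part of either list in the changes of Fcgr4, Trem3 and Trem1 in WT cells was not tested. Markers of mast cells and basophils, which use Fcer1g, summed to 4.35 to 4.52 CPM in WT and to 33.9 to 36.7 CPM in IRF5 KO at rest, mostly from Gata2, and reached 82.0 CPM in IRF5 KO LPS DMSO replicate 3. In WT cells they summed to 36.2 to 47.8 CPM with LPS and DMSO, and to 3.14, 2.77 and 27.0 CPM with LPS and defactinib, where Trem1 was lower. The IRF5 KO LPS defactinib libraries had 40.2 to 44.9 CPM. Of the 5 tested, 2 were called higher with LPS in WT, against 21.3% of all genes. With defactinib under LPS in WT, 2 were called lower, against 29.1%. With LPS and defactinib against rest in WT, 1 was called higher and 1 lower, against 24.9%. Tpsab1 was at 0 in every library. Markers of alveolar-like or GM-CSF macrophages summed to 400.4 to 464 CPM in WT and to 153 to 199.6 CPM in IRF5 KO at rest, where Fcgr2b was lower too, and 4 of 6 were called lower, against 7.31% of all genes. With LPS and DMSO their sum was 512 to 663 CPM in WT and 198 to 244 CPM in IRF5 KO, and with LPS and defactinib it was 723 to 945 CPM in WT and 343 to 359.8 CPM in IRF5 KO, where Fcer1g and Fcgr2b were higher than at rest. Osteoclast markers summed to 1055 to 1186 CPM in WT and to 391 to 479.9 CPM in IRF5 KO at rest. The part of these shifts in the values of Trem1, Fcer1g and Fcgr2b was not tested.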

How the data were processed

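RNA-seq of BMDMs was available for 6 groups of 3 libraries, grouped by the labels for genotype, treatment and LPS time. The authors deposited raw gene counts of read pairs with a unique match, from STAR on mm10 with up to 2 mismatches and featureCounts 1.6.3 (reverse stranded, summed over exons), and the deposited gene length, which was used for RPKM. The lengths and counts carry no normalization.

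Counts were tested with edgeR 4.0.16 (R 4.3.3), by its quasi-likelihood test with these settings (TMM, filterByExpr, robust fit, 1 mean per group over all 18 libraries), two-sided, with Benjamini-Hochberg adjustment over 15663 genes. Genes were called at an FDR below 0.05 and a log2 fold change beyond 1. CPM use TMM-scaled library sizes. The SE is the log2 change divided by the root of F. The p-values measure the spread between libraries, whose animals are not named. The script was tested on simulated data. Alternatives included DESeq2 1.42.0 and limma-voom (limma 3.58.1). Named are all members, Irf5, Ptk2b and Ptk2, genes that are among the 3 most abundant of a list or its most changed called gene in a comparison, and the 3 genes most like a member. Apoe, and of the cell type markers Gata2 and Tpsab1, were picked after their values were seen. The members and lists were chosen with earlier results of these data known.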

Additional observations from a re-analysis of the deposited data

Results flagged for a closer look

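The response of Fcgr4 to LPS differed between the genotypes by a test of the difference itself, with an interaction of -2.31 on the log2 scale (edgeR adjusted p = 0.0152). The test against the 2-fold limit did not call it (adjusted p = 0.218), nor did the fit with IRF5 KO LPS DMSO replicate 3 alone in its group (-1.66, adjusted p = 0.115). The interaction of Fcgr4 for LPS with defactinib was -1.98 (adjusted p = 0.035). It lost the FDR in 8 of 18 refits without 1 library, up to 0.105, and limma-voom (adjusted p = 0.0648) and the test against the 2-fold limit (0.426) did not call it. Both rest on at most 113 read pairs per library, and neither was tested under the filter of 5 CPM, which removes Fcgr4.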

How the results depend on the processing

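With no fold change threshold, the counts of called members were 3 for LPS in WT, 2 for LPS in IRF5 KO, 5 for LPS and defactinib in IRF5 KO, 4 for defactinib in WT, 1 for the genotype at rest, 5 and 3 for the genotype with LPS and DMSO and with LPS and defactinib, and 2 for the interaction of genotype and LPS. With a filter of 5 CPM in 3 libraries, which removes Fcgr4, they were 0 for LPS in WT, 1 for LPS and defactinib in WT, 1 and 0 for the genotype with LPS and DMSO and with defactinib, and 0 for both interactions. With the threshold inside the test (glmTreat) they were 0 for LPS and defactinib in either genotype, for the genotype in both LPS conditions and for both interactions. With library size alone, which moved the median of all genes by -0.38 (LPS in WT) to 0.25 (genotype with LPS and DMSO), 1 was called for LPS in IRF5 KO and 1 for LPS and defactinib in WT. A fit of only the groups compared called 1 for the genotype with LPS and DMSO and 0 with defactinib. No filter and limma-voom called 0 for the genotype with defactinib, and for the interaction of LPS with defactinib limma-voom called 0 and DESeq2 2. With IRF5 KO LPS DMSO replicate 3 alone in its group, 0 were called for the genotype with LPS and DMSO and for the interaction of genotype and LPS. Without each library in turn the counts were 1 to 1 for LPS in WT, 0 to 2 for LPS in IRF5 KO, 0 to 2 for LPS and defactinib in WT, 1 to 1 in IRF5 KO, 1 to 2 for defactinib in WT, 0 to 0 for the genotype at rest, 1 to 2 with LPS and DMSO, 0 to 2 with defactinib, 1 to 2 for the interaction with LPS and 0 to 2 for that with LPS and defactinib. With the replicate number as a block (replicate block) every count kept its main value, from 0 for the genotype at rest to 2 for the genotype with LPS and DMSO. The deviations of libraries with the same number were correlated at a median of 0.00 (45 pairs, 4 of them over 0.1), so the numbers were not taken as pairs. No reported fold change of a member that passed the FDR turned its sign under any alternative. Some that did not pass did turn, such as Trem1 for LPS in IRF5 KO, at -0.54 with all libraries and 0.53 with replicate 3 alone in its LPS group. Fits of the members and companion lists without each library that stood apart, and by library size alone, were added after the data were seen. The cause of these moves was not tested, other than by the removal of Fcgr4. Fcgr4, Trem3 and Hcst are limited by depth, with 20 to 345 read pairs per library.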
